A study of Mus musculus with 6 samples.

Results

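The genes described here are the cyclins, kinases and partners that carry a cell from G1 into S phase: the D cyclins Ccnd1, Ccnd2 and Ccnd3, their kinases Cdk4 and Cdk6, the E cyclins Ccne1 and Ccne2 with their kinase Cdk2, the kinase inhibitor Cdkn1b (p27) and the transcription factor E2f3. They were chosen by gene symbol, with earlier results of these data known, and 10 of the 19938 genes on the arrays are members. Each is represented by its brightest probe set, and E2f3 also by a second, dimmer one. E14 cells, a mouse embryonic stem cell line, were grown on adherent plates and received either a non-specific siRNA pool (control), siRNA 1 against p/CIP, or siRNA 2 against p/CIP. Each of the 3 groups has 2 arrays, so 4 knockdown arrays stand against 2 control arrays. p/CIP is the protein of Ncoa3, a coactivator of nuclear receptors, and the study asked which transcripts change when it is lowered. The knockdown is partial, no genotype was altered, and the time between transfection and harvest is not given in the sources used here. The labels do not tie the replicates to separate cultures. The p-values therefore measure only the spread between these arrays, which may be technical.

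In most cells, mitogens raise the D cyclins, which activate Cdk4 and Cdk6 to phosphorylate the retinoblastoma protein. This frees E2F factors to switch on genes for DNA replication, among them the E cyclins, which activate Cdk2 and complete the phosphorylation. Cdkn1b restrains cyclin E with Cdk2 and helps D cyclins assemble with their kinases. Mouse embryonic stem cells are known for a short G1 phase, in which Cdk2 activity stays high through the cycle and control by the retinoblastoma protein is weak.

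The stretches just upstream of the start sites are shown for 4 of these genes, because E2f3 and Ccnd3 read lower after knockdown, while the kinases Cdk4 and Cdk2 read nearer to control. These 4 were picked by their values, so a link between motifs and changes was not tested. RefSeq start sites on GRCm38.p6 gave 9 windows of 249 bases for 7 of the 10 members (Ccnd3, Ccne1, Cdk2, Cdk4, Cdk6, E2f3 and Cdkn1b). Capitals mark a match, on either strand, to 3 motifs: TTTNNCGC, the core of E2F sites, CACGTG, the E-box bound by Myc proteins, and AGGTCA, the half-site of many nuclear receptors. E2f3 and Ccnd3 each have 2 start sites in the table, and the arrays do not tell which start a transcript used.
E2f3, first start (chr13:29986065-29986313, minus strand): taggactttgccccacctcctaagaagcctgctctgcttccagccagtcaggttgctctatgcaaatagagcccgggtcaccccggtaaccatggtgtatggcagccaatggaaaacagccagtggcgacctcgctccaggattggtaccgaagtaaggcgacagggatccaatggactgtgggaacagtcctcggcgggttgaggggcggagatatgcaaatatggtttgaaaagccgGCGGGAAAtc
E2f3, second start (chr13:29984393-29984641, minus strand): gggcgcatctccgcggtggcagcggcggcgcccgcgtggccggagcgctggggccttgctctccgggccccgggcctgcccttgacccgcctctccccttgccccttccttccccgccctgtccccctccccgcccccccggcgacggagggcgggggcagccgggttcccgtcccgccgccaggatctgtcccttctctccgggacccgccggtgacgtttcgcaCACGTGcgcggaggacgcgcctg
Ccnd3, first start (chr17:47504801-47505049, plus strand): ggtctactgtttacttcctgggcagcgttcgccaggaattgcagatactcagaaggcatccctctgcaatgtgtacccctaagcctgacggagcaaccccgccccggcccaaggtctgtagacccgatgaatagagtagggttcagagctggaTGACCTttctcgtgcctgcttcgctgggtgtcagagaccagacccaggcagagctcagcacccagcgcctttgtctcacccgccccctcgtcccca
Ccnd3, second start (chr17:47593217-47593465, plus strand): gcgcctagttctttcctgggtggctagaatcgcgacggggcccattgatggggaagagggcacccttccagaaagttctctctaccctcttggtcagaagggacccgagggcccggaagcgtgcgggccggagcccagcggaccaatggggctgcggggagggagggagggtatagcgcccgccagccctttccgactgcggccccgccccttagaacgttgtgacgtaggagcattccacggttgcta
Cdk4 (chr10:127063285-127063533, plus strand): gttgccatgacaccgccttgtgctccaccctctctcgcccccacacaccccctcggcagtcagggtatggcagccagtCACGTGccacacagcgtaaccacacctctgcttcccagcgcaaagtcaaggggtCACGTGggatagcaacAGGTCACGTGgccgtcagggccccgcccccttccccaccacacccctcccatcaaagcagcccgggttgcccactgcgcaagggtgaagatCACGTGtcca
Cdk2 (chr10:128705053-128705301, minus strand): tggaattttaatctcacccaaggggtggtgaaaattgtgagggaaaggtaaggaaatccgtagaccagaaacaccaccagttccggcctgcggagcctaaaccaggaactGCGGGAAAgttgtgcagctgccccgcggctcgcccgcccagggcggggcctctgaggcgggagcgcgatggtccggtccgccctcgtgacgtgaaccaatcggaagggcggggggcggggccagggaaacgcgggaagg

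The first E2f3 start has an E2F-type match that begins 10 bases before it, and the second has a CACGTG that begins 23 bases before it. Cdk4 has 4 copies of CACGTG, 1 of which overlaps its AGGTCA. Cdk2 has an E2F-type match that begins 139 bases before the start, and the first Ccnd3 start has an AGGTCA on the opposite strand. Of the windows not printed, that of Cdk6 held an E2F-type match and a CACGTG, and those of Ccne1 and Cdkn1b held no match. Ccnd2, the member farthest below control, had no window. Of the 9 member windows, 3 held the E2F-type motif, 3 held CACGTG and 2 held AGGTCA. Among all 32851 windows of the same length the shares were 4.25%, 6% and 14%. These windows were not matched for base composition, and a match describes letters, not a bound factor.

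The target of the siRNAs fell over both. Ncoa3 read 12.33 and 12.28 in the controls, against 10.71 and 10.93 under siRNA 1 and 10.71 and 10.92 under siRNA 2, all on a log2 scale. That leaves 35.6% of the control level over both siRNAs (log2 change -1.49, limma adjusted p = 0.0287). That call was lost on leaving out either control array (limma adjusted p = 0.62 and 0.248) or either siRNA 2 array (0.146 and 0.0969), as it was over all probe sets (0.166). Its log2 change stayed between -1.54 and -1.43. Alone, siRNA 1 passed (limma adjusted p = 0.0452) and siRNA 2 did not (0.0742, and 0.048 with the replicate block). The array of siRNA 1 replicate 2 stood apart from the rest, with an interquartile range of 3.13 against 3.33 to 3.45 on the other 5. Members' values that move by over 1.5 times without it are given with and without it. All 8 stem cell markers looked for lay above the median gene level of 7.81, as did 5 of 8 primitive endoderm, 5 of 8 trophoblast, 5 of 6 neural, 3 of 8 fibroblast and 1 of 7 mesoderm markers.

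Over both siRNAs, 9 of the 10 members read below control, as did 47.7% of all genes, and Ccnd1 read close to it. Ccnd2 and E2f3 stood farthest below control over both siRNAs and with siRNA 2, while with siRNA 1 Ccne2 lay between them. The median log2 change of the members was -0.16, against 0.01 over all genes. On all 4 knockdown arrays, 7 members were lower than on both control arrays, as were 10.1% of all genes: Ccnd2, Ccnd3, Ccne1, Ccne2, Cdk4, Cdk6 and E2f3. This order was lost for Cdk4 and Cdk6 after quantile normalization, for Cdk6 after cyclic loess, and for Ccne1 and Cdk4 with array medians aligned, when 7.79%, 9.13% and 7.12% of all genes were so ordered. The members were chosen with earlier results of these data known, so their shares beside those of all genes are not a test. In RNA from whole cultures, fewer cells of a type and less RNA per cell cannot be told apart.

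**Figure D1:**
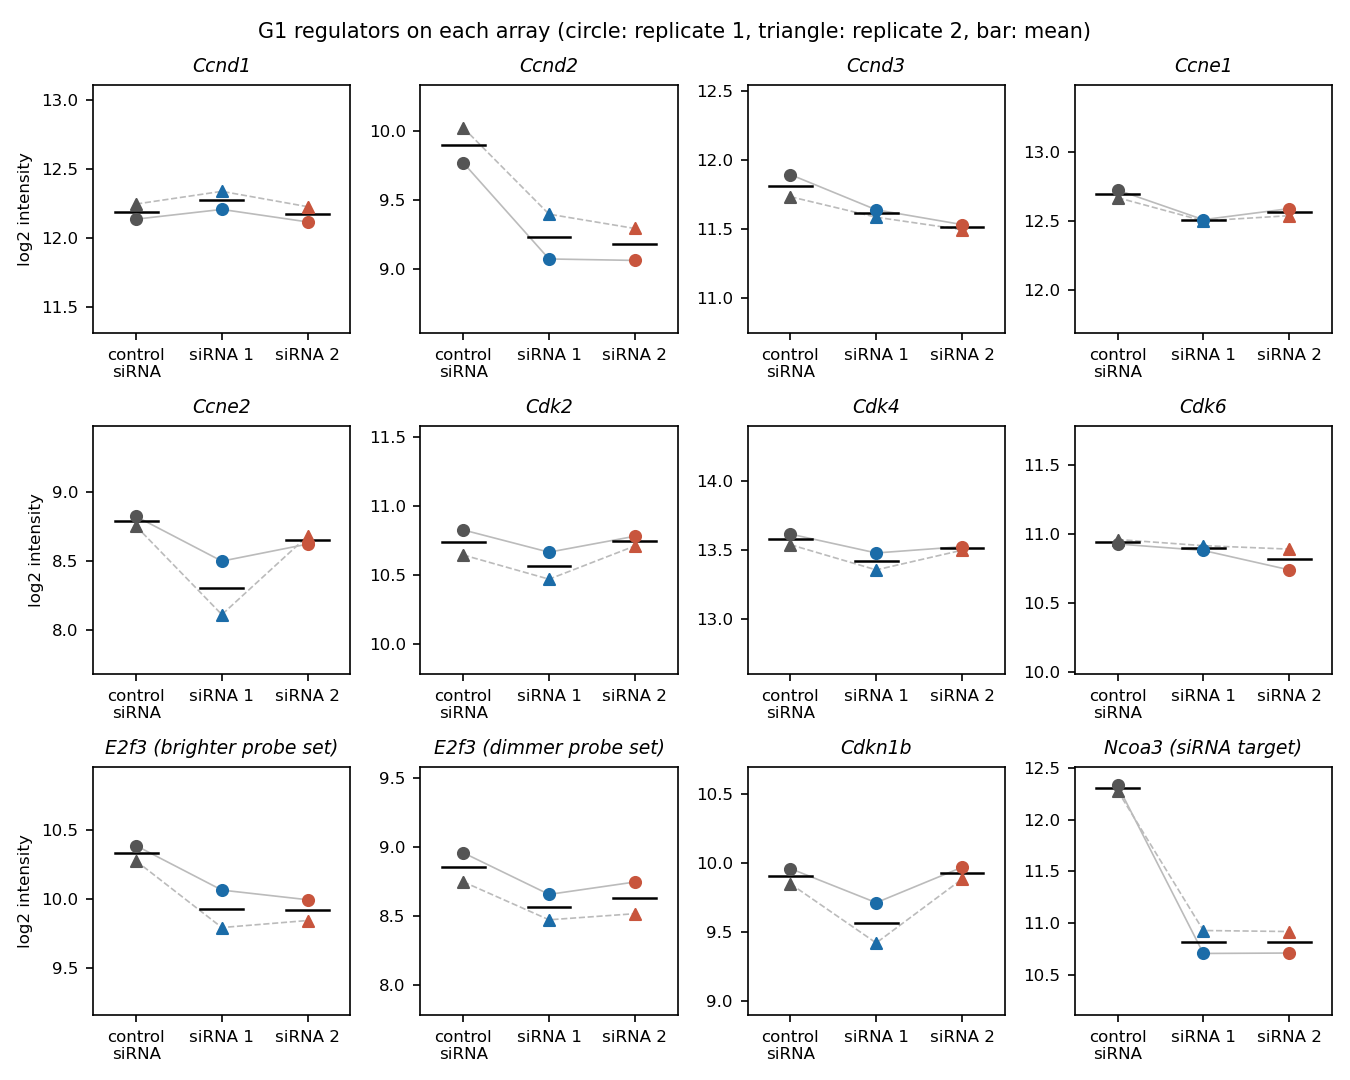
Log2 intensity (vertical axis) of each member, of the dimmer E2f3 probe set and of Ncoa3 on each array, by siRNA group (horizontal axis), with circles for replicate 1, triangles for replicate 2, bars for group means, and grey lines that join arrays of 1 replicate number. All member panels span the same log2 range, and Ccnd2 shows the widest step from control, from 9.77 and 10.02 to between 9.06 and 9.39.

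No member passed over all genes in the fit of the 3 groups: limma called 0 of 10, and 0.0702% of all genes, at an adjusted p under 0.05. An unmoderated linear model called 0 members and 0 of all genes, so its count says nothing particular of the members. At an unadjusted p under 0.05, 5 members were lower (Ccnd2, Ccnd3, Ccne1, Ccne2 and E2f3), as were 4.86% of all genes, and 0 were higher. With the replicate number as a block, which compares arrays of the same number, 1 member passed, Ccnd2, as did 0.341% of all genes.

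The D cyclins, the subunits that answer to growth signals, had unlike values. Ccnd2 read 9.77 and 10.02 in the controls, against 9.07 and 9.39 under siRNA 1 and 9.06 and 9.29 under siRNA 2. The knockdown arrays were all below both controls, and the siRNA groups overlapped each other. Over both siRNAs Ccnd2 stood at 62% of control, 1.61-fold lower (log2 change -0.69, standard error 0.128, 95% interval -0.99 to -0.39, limma adjusted p = 0.186, lower on 4 of 4 arrays). With the replicate block the limma adjusted p was 0.0197, so Ccnd2 passed in that fit and not in the fit without it. The log2 change was the same in both fits, and the standard error with the block was 0.0559. In every group the replicate 2 array read higher, by 0.25 in control, 0.32 with siRNA 1 and 0.23 with siRNA 2. The change was -0.70 within replicate 1 and -0.68 within replicate 2. The blocked call was lost when either control array was left out (limma adjusted p = 0.362 without the one numbered 1 and 0.212 without the other) and when either siRNA 2 array was (0.127 and 0.125). It held without either siRNA 1 array (limma adjusted p = 0.0109 and 0.0079). These 6 fits each had 1 residual degree of freedom, and the log2 change stayed between -0.71 and -0.67 in them. The losses and gains were not particular to Ccnd2: the 4 fits that lost it called 0 of all genes, at 1 residual degree of freedom, and those that kept it called 745 and 215.

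Ccnd3 read 11.90 and 11.74 in the controls, against 11.64 and 11.59 under siRNA 1 and 11.53 and 11.50 under siRNA 2. All knockdown arrays were below both controls, and the lower control stood nearer to the siRNA 1 arrays than to the other control. Over both siRNAs Ccnd3 was 1.19-fold lower (log2 change -0.25, standard error 0.0757, 95% interval -0.43 to -0.07, limma adjusted p = 0.4). Ccnd1, the D cyclin most often amplified in tumours, read 12.14 and 12.25 in the controls, against 12.21 and 12.34 under siRNA 1 and 12.12 and 12.23 under siRNA 2. Its groups overlapped, and the log2 change was 0.03 with a 95% interval of -0.16 to 0.22 (limma adjusted p = 0.927), and -0.0020 without siRNA 1 replicate 2.

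Cdk4 and Cdk6, the kinases that D cyclins activate, had changes whose intervals include 0. Cdk4 read 13.61 and 13.54 in the controls, against 13.48 and 13.36 under siRNA 1 and 13.52 and 13.50 under siRNA 2. All knockdown arrays were below both controls, although the nearest came within less than the distance between the controls. Its log2 change was -0.11 (95% interval -0.29 to 0.06, limma adjusted p = 0.686), and -0.074 without control replicate 1. Cdk6 read 10.93 and 10.96 in the controls, against 10.88 and 10.92 under siRNA 1 and 10.74 and 10.89 under siRNA 2. The log2 change was -0.09 (95% interval -0.26 to 0.09, limma adjusted p = 0.755), and the siRNA 1 arrays nearly met the controls. Without siRNA 2 replicate 1, the lowest array, it was -0.050.

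The E cyclins bind Cdk2 late in G1. Ccne1 read 12.72 and 12.67 in the controls, against 12.51 and 12.50 under siRNA 1 and 12.59 and 12.54 under siRNA 2. The groups did not overlap, in the order control, siRNA 2, siRNA 1, and the arrays within a group lay close together, with a pooled SD of 0.031. Ccne1 was 1.12-fold lower over both siRNAs (log2 change -0.16, standard error 0.0664, 95% interval -0.32 to -0.0044, limma adjusted p = 0.559). Ccne2 read 8.82 and 8.75 in the controls, against 8.50 and 8.11 under siRNA 1 and 8.62 and 8.68 under siRNA 2. The array of siRNA 1 replicate 2 was the lowest by far. Over both siRNAs the log2 change was -0.31 (standard error 0.113, 95% interval -0.58 to -0.04, limma adjusted p = 0.513), and without that array it was -0.21. Cdk2, their kinase, read 10.82 and 10.64 in the controls, against 10.66 and 10.47 under siRNA 1 and 10.78 and 10.71 under siRNA 2. Its groups overlapped (log2 change -0.08, 95% interval -0.30 to 0.14, limma adjusted p = 0.814), and the value was 0.01 without control replicate 1 and -0.030 without siRNA 1 replicate 2.

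Cdkn1b, the inhibitor p27, had different values under each siRNA. It read 9.96 and 9.85 in the controls, against 9.71 and 9.42 under siRNA 1 and 9.97 and 9.88 under siRNA 2. The siRNA 2 arrays lay among the controls and the siRNA 1 arrays below them. Over both siRNAs the log2 change was -0.16 (95% interval -0.39 to 0.08, limma adjusted p = 0.681), and without siRNA 1 replicate 2, the lowest array, it was -0.085. A second Cdkn1b probe set was dim, between 5.04 and 5.64, with a log2 change of -0.0043 over both siRNAs.

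E2f3, an activating E2F that retinoblastoma protein holds in check, was the member next to Ccnd2. Its brighter probe set, 10408477, read 10.39 and 10.28 in the controls, against 10.07 and 9.79 under siRNA 1 and 9.996 and 9.85 under siRNA 2. The dimmer one, 10408475, read 8.96 and 8.75 in the controls, against 8.66 and 8.47 under siRNA 1 and 8.75 and 8.52 under siRNA 2. On both probe sets all knockdown arrays were below both controls, although on the dimmer one siRNA 2 replicate 1 and control replicate 2 print as the same value. The brighter stood at 75.4% of control, 1.33-fold lower (log2 change -0.41, standard error 0.1, 95% interval -0.64 to -0.17, limma adjusted p = 0.295, and 0.0689 with the replicate block). The dimmer gave -0.25 (standard error 0.114, 95% interval -0.54 to 0.03, limma adjusted p = 0.759 over all probe sets), and -0.15 without control replicate 1. On either probe set the replicate 2 array was the lower in every group, by 0.11 to 0.27 on the brighter and by 0.18 to 0.23 on the dimmer. Both are assigned to the same gene, and which of the start sites printed above each one reads was not analysed here.

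**Figure D2:**
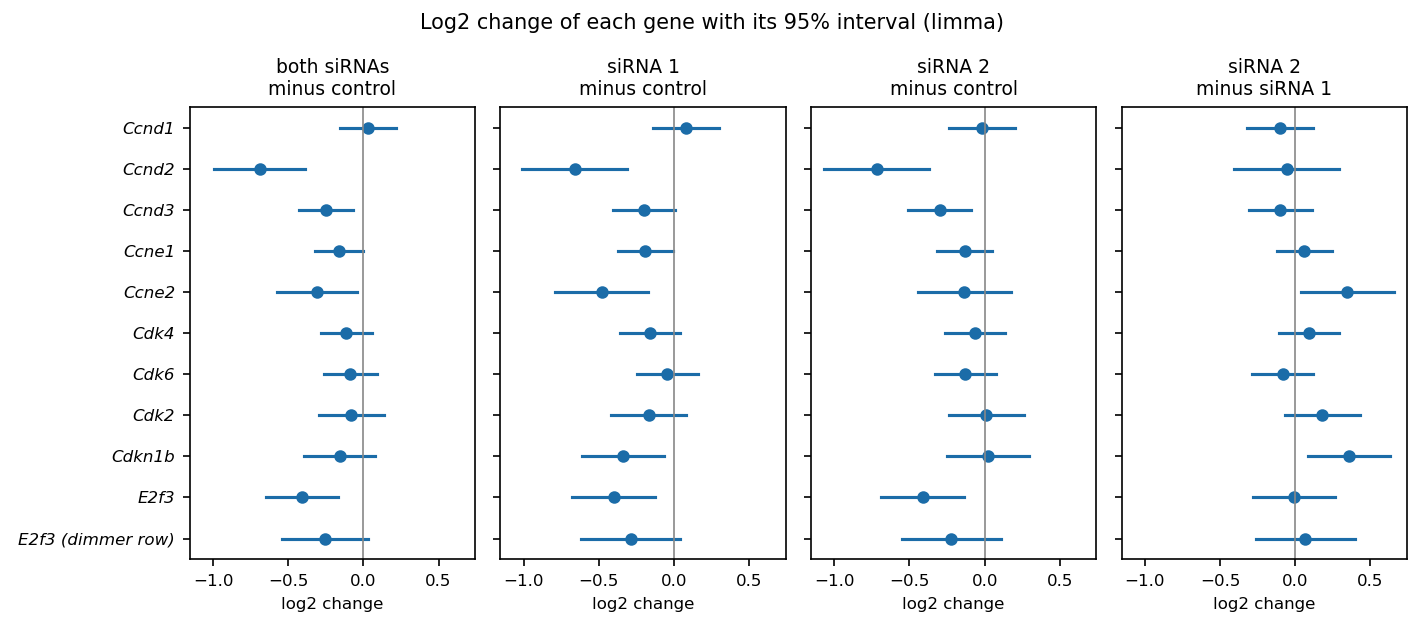
Log2 change (horizontal axis) of each member and of the dimmer E2f3 probe set (vertical axis) in 4 comparisons, with points for the estimate and lines for limma's 95% interval. For both siRNAs the intervals of Ccnd2 (-0.99 to -0.39), E2f3 (-0.64 to -0.17), Ccnd3 (-0.43 to -0.07), Ccne2 (-0.58 to -0.04) and Ccne1 (-0.32 to -0.0044) lie wholly below 0. That of the dimmer E2f3 probe set (-0.54 to 0.03) includes 0. In the comparison of the siRNAs only those of Ccne2 and Cdkn1b lie wholly above 0.

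Each siRNA was also compared with the same 2 control arrays, so these comparisons share their controls. With siRNA 1, limma called 0 of the 10 members and 0.0702% of all genes, while 9 members and 44.5% of all genes lay below control. At an unadjusted p under 0.05, 5 members were lower (Ccnd2, Ccne1, Ccne2, E2f3 and Cdkn1b), as were 6.37% of all genes. An unmoderated model called 0 members and 0 of all genes, and the replicate block called 1 member, Ccnd2, and 1.21% of all genes. With siRNA 2, limma called 0 members and 0% of all genes, while 8 members and 52.8% of all genes lay below control. At an unadjusted p under 0.05, 3 members were lower (Ccnd2, Ccnd3 and E2f3), as were 2.99% of all genes. The unmoderated model again called 0 members and 0 of all genes, and the block called Ccnd2 alone of the members and 0.13% of all genes.

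Ccnd2 and E2f3 had like mean changes with each siRNA. For Ccnd2 the log2 change was -0.66 with siRNA 1 (standard error 0.148, limma adjusted p = 0.205, and 0.0242 with the block) and -0.72 with siRNA 2 (limma adjusted p = 0.385, and 0.048 with the block). The difference between the siRNAs was -0.06, with a 95% interval of -0.41 to 0.29. For E2f3 the changes were -0.40 and -0.41, and the difference -0.01 with an interval of -0.28 to 0.27. The siRNA 1 value averages unlike arrays: it was -0.27 without siRNA 1 replicate 2 (limma adjusted p = 0.667) and -0.54 without siRNA 1 replicate 1 (0.0541). Neither difference passed (limma adjusted p = 0.922 and 0.984). The intervals rest on the spread between 2 arrays a group and do not show that the siRNAs are alike. Without siRNA 1 replicate 2 the differences were 0.11 for Ccnd2 and -0.15 for E2f3.

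Cdkn1b and Ccne2 had the largest differences between the siRNAs among the members. Cdkn1b was at -0.34 with siRNA 1 (95% interval -0.61 to -0.07, limma adjusted p = 0.349) and at 0.02 with siRNA 2 (-0.25 to 0.29, adjusted p = 0.999). The difference of siRNA 2 minus siRNA 1 was 0.36 (standard error 0.114, 95% interval 0.09 to 0.63, limma adjusted p = 0.675). Ccne2 was at -0.48 with siRNA 1 (limma adjusted p = 0.267) and at -0.14 with siRNA 2 (0.999), a difference of 0.35 (standard error 0.131, 95% interval 0.04 to 0.66, limma adjusted p = 0.718). Both differences fail the correction over all genes. Without siRNA 1 replicate 2 they were 0.21 for Cdkn1b and 0.15 for Ccne2, with changes under siRNA 1 of -0.19 and -0.29. Without siRNA 1 replicate 1 they were 0.51 and 0.54. In that fit siRNA 1 is the single array that stood apart, assumed to vary like the other groups. There Ccne2 was at -0.68 against control (limma adjusted p = 0.0433), 1 of 437 genes called, against 14 with all arrays.

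Between the siRNAs limma called 0 members and 0% of all genes. The unmoderated model called 0 members and 0 of all genes, and the block called 0 members and 0.0752% of all genes. Of the 10 members 5 were lower with siRNA 2, as were 58.1% of all genes. At an unadjusted p under 0.05, 2 members were higher, Cdkn1b and Ccne2, as were 3.36% of all genes. Ccnd3 and Cdk6 read lower with siRNA 2 than with siRNA 1 (-0.10 and -0.08), and Cdk2 and Cdk4 read higher (0.18 and 0.09), each with an interval that includes 0. Without siRNA 1 replicate 2 the values of Cdk2 and Cdk4 were 0.080 and 0.033.

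Arrays of 1 group also differed by replicate number. For 9 of 10 members the difference between the arrays numbered 2 and 1 had the same sign in all 3 groups, as it had for 49.9% of all genes. Ccnd1, Ccnd2 and Cdk6 read higher on the arrays numbered 2, and Ccnd3, Ccne1, Cdk2, Cdk4, E2f3 and Cdkn1b read lower. Ccne2 was the exception, lower in control and with siRNA 1 and higher with siRNA 2. The labels do not say what a replicate number marks.

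Genes that act beside the members were described from 5 lists, and limma called 0 of their genes in any of the 4 comparisons, with or without the block. The unmoderated model called 0 of them too, as it called 0 of all genes. Among the pocket proteins, E2F factors and their partners, 15 of 17 lay below control over both siRNAs (median -0.08), as did 47.7% of all genes. On all knockdown arrays 6 were lower and 1 higher, against 10.1% and 8.83% of all genes. The repressor E2f8 was at -0.23 (limma adjusted p = 0.375), E2f5 at -0.21 (0.539), the activator E2f2 at -0.20 (0.577) and Tfdp2, a dimer partner of E2F, at -0.26 (0.686). At an unadjusted p under 0.05, 2 of the 17 were lower, E2f5 and E2f8, as were 4.86% of all genes.

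Among E2F target genes of replication, 22 of 29 lay below control (median -0.07), as did 47.7% of all genes. On all knockdown arrays 7 were lower and 3 higher, against 10.1% and 8.83% of all genes. At an unadjusted p under 0.05, 1 was lower, as were 4.86% of all genes. Thymidine kinase Tk1 was at -0.21 (limma adjusted p = 0.477), Mybl2 at -0.17 (0.579), the uracil glycosylase Ung at -0.15 (0.643) and the polymerase subunit Pold1 at 0.13 (0.647). Between the siRNAs, 25 of the 29 read higher with siRNA 2, by a median of 0.03, while 58.1% of all genes read lower. The siRNA 1 replicate 2 array with its narrower range enters that comparison, and its part in it was not tested.

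Of the other CDK inhibitors, 4 of 6 lay above control (median 0.06), while 47.7% of all genes lay below it. Of these, 1, Cdkn2a, was higher on all knockdown arrays, as were 8.83% of all genes. It was also higher at an unadjusted p under 0.05, as were 770 of all 19938 genes. Cdkn2a, which encodes p16 and Arf, was at 0.19 (limma adjusted p = 0.559), Cdkn2c (p18) at 0.19 (0.656), Cdkn3 at -0.07 (0.821) and Cdkn2d (p19) at 0.06 (0.831). Cdkn1a was not analysed here. Of the later cyclins, kinases and their activators, 11 of 14 lay below control (median -0.05), as did 47.7% of all genes. On all knockdown arrays 1 was lower and 1 higher, against 10.1% and 8.83% of all genes. Of the 14, 0 had an unadjusted p under 0.05. Cks1b, which helps Skp2 recognise p27, was at 0.13 (limma adjusted p = 0.624), Ccnh, the cyclin of the kinase that activates CDKs, at -0.23 (0.659), the phosphatase Cdc25c at -0.15 (0.693) and Cks2 at -0.09 (0.735). Ccnb1 was not analysed here.

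Of the genes listed for their part in the degradation of G1 cyclins and p27, in either direction, 8 of 14 lay below control (median -0.02). Of all genes, 47.7% lay below control. On all knockdown arrays 2 of the 14 were lower and 1 higher, against 10.1% and 8.83% of all genes. Of the 14, 0 had an unadjusted p under 0.05. Fbxo4, a ubiquitin ligase subunit linked to cyclin D1, was at 0.14 (limma adjusted p = 0.634), Gsk3b, a kinase that primes cyclins for destruction, at -0.13 (0.651), Ambra1, the adaptor that directs D cyclins to degradation, at -0.09 (0.727) and Cul3 at -0.06 (0.816). None of these 14 stood as far from control as Ccnd2, Ccnd3, Ccne2 or E2f3.

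**Figure D3:**
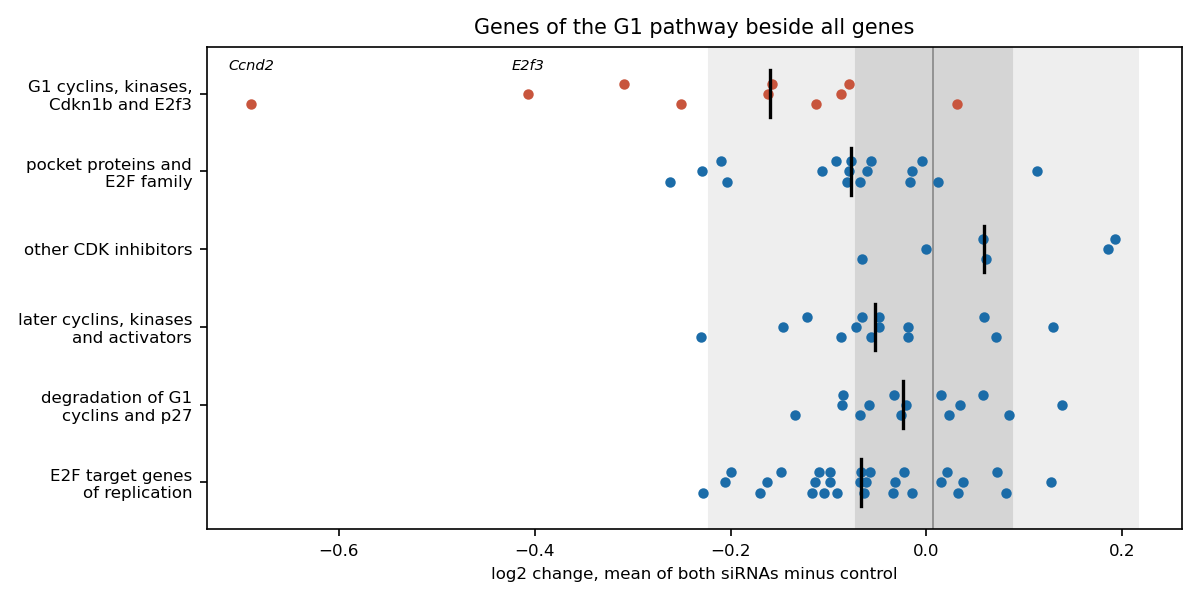
Log2 change over both siRNAs (horizontal axis) of the members (red) and of 5 lists of neighbouring genes (blue), 1 point per gene with the list's median as a black bar, over bands that hold the middle 50% (dark grey) and 90% (light grey) of all genes. The members' median of -0.16 lies outside the dark band, whose lower end is at -0.072. The median of the pocket proteins and E2F family, -0.077, lies just outside it too. Those of the other lists lie within it, between -0.067 and 0.059. Members and lists were chosen with earlier results of these data known.

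Genes with values like those of Ccnd2 or E2f3 over the 6 arrays, after each gene's own mean was removed, were sought above the median gene level. Predicted genes, olfactory receptors and accession-like symbols were left out. The closest to Ccnd2 were Cd37, Gabbr1, Scmh1, Kdelr3 and Gli2, with root mean square differences of 0.059 to 0.141 on the log2 scale. Cd37 encodes a tetraspanin, Gabbr1 a GABA receptor subunit, Scmh1 a Polycomb protein, Kdelr3 a retrieval receptor of the endoplasmic reticulum and Gli2 a hedgehog effector. Their log2 changes over both siRNAs ran from -0.81 for Gli2 (limma adjusted p = 0.0347) to -0.57 for Scmh1 (0.126). These genes were chosen for values like those of Ccnd2, so their own changes follow from the choice. For E2f3 the nearest were Ly75, Pitpnc1, Soga3, Lrrc2 and Chrna9, with differences of 0.0365 to 0.0487 and changes between -0.39 and -0.37, none of which passed.

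**Figure D4:**
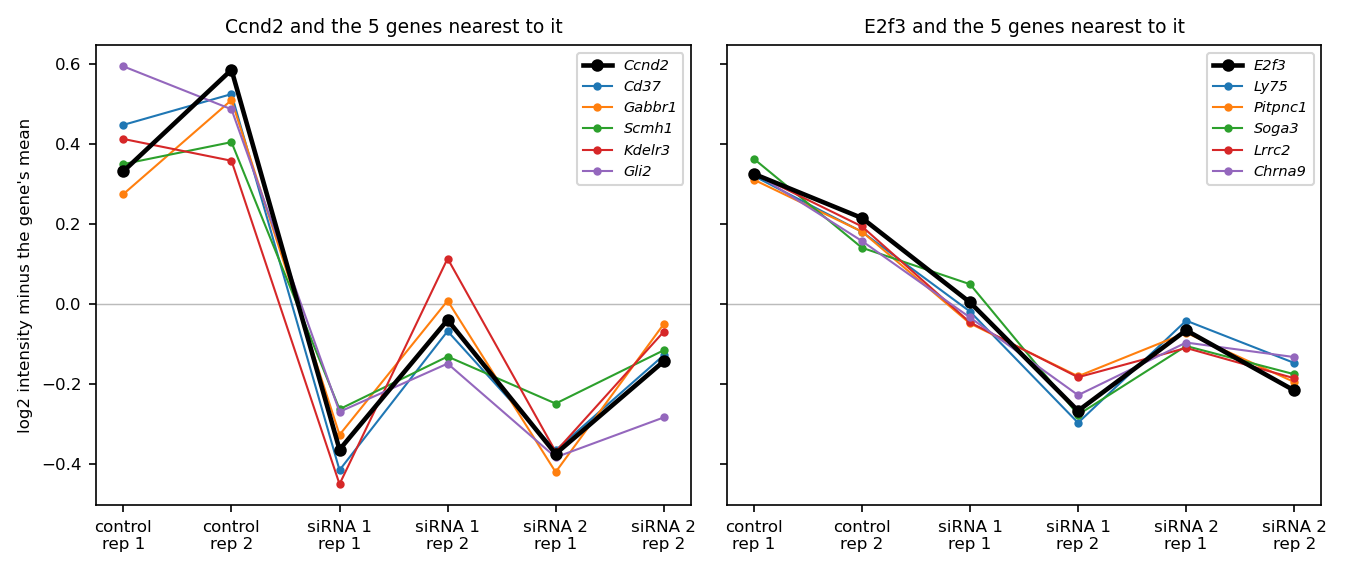
Log2 intensity minus the gene's mean over the 6 arrays (vertical axis) on each array (horizontal axis), for Ccnd2 (left, black) and E2f3 (right, black) with the 5 nearest of the genes searched in colour. In the Ccnd2 panel the knockdown arrays lie lower and the arrays numbered 2 are higher than those numbered 1 in both siRNA groups, while in the E2f3 panel they are lower.

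Markers of cell types were set beside these values. The mean over 8 stem cell markers was 12.58 and 12.49 in the controls, 12.45 and 12.33 under siRNA 1, and 12.47 and 12.37 under siRNA 2, so it was lower on every knockdown array. Of the 8, 2 were lower and 1 higher on all knockdown arrays, against 10.1% and 8.83% of all genes. Zfp42 (-0.39) and Nanog (-0.33) lay farthest below control, while Utf1 was at -0.03, Lin28a at -0.02 and Dppa5a at 0.06. The mean over 8 primitive endoderm markers was 7.79 and 8.14 in control, 7.91 and 8.46 with siRNA 1, and 7.93 and 8.16 with siRNA 2. It was highest on the siRNA 1 replicate 2 array, the one with the narrower interquartile range. That array also had the highest fibroblast, trophoblast and mesoderm means and the lowest stem cell mean. Ccne1, Ccne2, Cdk2, Cdk4, Cdkn1b and E2f3 all read lowest on it. The mean over 8 trophoblast markers was 7.84 and 7.92 in the controls, 7.98 and 8.13 under siRNA 1, and 7.76 and 7.94 under siRNA 2. The mean over 6 neural markers was 8.42 and 8.43 in the controls and 8.31 to 8.39 under the siRNAs. Means over 8 fibroblast markers (6.86 to 7.07) and 7 mesoderm markers (7.35 to 7.56) overlapped between control and knockdown. Limma called 0 genes of the 6 lists over both siRNAs, and their part in the members' values was not tested.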

How the data were processed

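RNA from 6 samples was hybridised to 1-colour whole-transcript arrays. The values are log2 intensities as the authors deposited them, processed with Partek per the submitters' processing notes. Which version, background correction and scaling it used is not given in the sources used here. The log base is inferred from the range of values, 2.69 to 14.6. Array medians lay between 7.77 and 7.84. Of 35556 probe sets, 21789 carry 1 gene symbol in the platform annotation, 1621 carry several and 12146 are unnamed here, which gave 19938 genes, each by its brightest probe set. The number of arrays limits the precision.

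Genes were tested with limma 3.58.1 in R 4.3.3 (lmFit and eBayes) on all 6 arrays with 1 coefficient per group, 3 residual degrees of freedom, two-sided, with Benjamini-Hochberg adjustment over all genes and a threshold of 0.05. The fit was tested on simulated data with independent noise, no replicate effect and changes larger than those of the members. That test does not cover arrays that pair by number or an array that stands apart. The replicate number was an alternative block: deviations of same-numbered arrays correlated at 0.464 (control and siRNA 1), 0.407 (control and siRNA 2) and 0.461 (both siRNAs), which is weak evidence from 2 arrays a group, and the pairing comes from the data, not the labels. Other alternatives were quantile, cyclic loess and median scaling, all probe sets, the mean of a gene's probe sets, a filter on dim genes, a trended robust fit, only the groups compared, and each array left out.

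Members and gene lists were chosen with earlier results of these data known. All members are named, with the 4 genes of each list of lowest p over both siRNAs and the 5 genes closest to Ccnd2 and E2f3. The closest genes were sought above the median gene level, without predicted genes, olfactory receptors or accession-like symbols.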

Additional observations from a re-analysis of the deposited data

How the results depend on the processing

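Of 590 values of members' brightest probe sets under other settings and with single arrays left out, 567 kept direction and side of the threshold, 4 newly passed and 19 changed sign. None passed at first, so none could stop passing, and Ncoa3, whose call was lost with several arrays left out, is not among them. With the block, all probe sets, the filter on dim genes, the trended robust fit or only the groups compared, the log2 change is fixed by construction. Its direction could not change there, nor where the array left out belongs to a group not compared. The replicate block called 1 member, Ccnd2, over both siRNAs, 1 with siRNA 1 and 1 with siRNA 2. With 1 array left out, with or without the block (added after seeing the data), members called ranged from 0 to 3 over both siRNAs, 0 to 4 for siRNA 1, 0 to 1 for siRNA 2 and 0 to 1 between the siRNAs, the most without siRNA 1 replicate 1. Without that array the block leaves 1 residual degree of freedom and calls Ccnd2, Ccne2 and E2f3 over both siRNAs, with Cdkn1b for siRNA 1, where siRNA 1 is a single array, the one that stood apart. The same fits called 745 and 1910 of all 19938 genes. The cause was not tested.

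Small log2 changes reversed: Cdk6 with siRNA 1 to 0.020 (quantile) and 0.014 (cyclic loess), Ccnd1 with siRNA 2 to 0.0035 and 0.0043, and between the siRNAs E2f3 to 0.030 with medians aligned and 0.029 as the mean of its probe sets, and Ncoa3 to 0.036 with medians aligned. Leaving out 1 array gave ranges across 0: over both siRNAs Ccnd1 -0.024 to 0.085 and Cdk2 -0.17 to 0.011. With siRNA 2 they were Ccnd1 -0.075 to 0.035, Cdk2 -0.081 to 0.10 and Cdkn1b -0.034 to 0.077. Between the siRNAs they were Ccnd2 -0.22 to 0.11, E2f3 -0.15 to 0.13, its dimmer probe set -0.048 to 0.18 and Ncoa3 -0.11 to 0.11.

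Calls over all genes moved more. From 14 over both siRNAs they went to 68 with the block, 38 above the median level, 71 with trend and robust, 0 over probe sets, and 0 to 37 with 1 array left out without the block. With both, the block and 1 array left out, they ranged from 0 to 745, and for siRNA 1, siRNA 2 and between the siRNAs from 0 to 1910, 0 to 108 and 0 to 494. For siRNA 1 they went from 14 to 241, 85, 150, 0 and 0 to 437, and to 37 (cyclic loess), 35 (medians aligned) and 0 (only the groups compared), when Ncoa3 did not pass (limma adjusted p = 0.155). For siRNA 2 they went from 0 to 26, 11, 17, 0 and 0 to 10, and to 2, 5 and 10. Between the siRNAs they went from 0 to 15, 4, 23, 0 and 0 to 2, and to 4 with medians aligned. With 2 arrays a group, changes near the spread between arrays could not be told from 0.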
